A study of Rattus norvegicus with 12 samples.

Results

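Transcripts of 10 genes of the circadian clock and its output were followed across 4 groups of rat brain libraries. The genes were chosen by name, with earlier results of these data known: Arntl, Clock, Per1, Per2, Per3, Nr1d1, Nr1d2, Dbp, Tef and Ciart. They are 10 of the 17337 rows of the deposited count table, and all 10 passed the filter on low counts that left 12850 tested genes. The libraries came from brain tissue, called middle brain in the study's design text, of male Sprague-Dawley rats at postnatal day 60, with 3 rats in each of 4 groups. Sham rats were the controls. The other groups had 4 weeks of bile duct ligation (BDL), in which blocked bile flow leads to cirrhosis, a model of hepatic encephalopathy. Of these, 1 group carried BDL alone. The BDL + AAV-GFP and BDL + AAV-VEGFC groups carried BDL and also received 20 µl of an adeno-associated virus (AAV) into the cisterna magna, coding for green fluorescent protein or for vascular endothelial growth factor C. These groups are called AAV-GFP and AAV-VEGFC below. The promoters of the vectors, the animals behind single libraries and the clock time of tissue collection were not stated in the labels.

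The circadian clock is a feedback loop of transcription that runs in most cells, including neurons and glia. The proteins of Arntl (also Bmal1) and Clock pair up and bind E-boxes, where they switch on the Per and Cry repressors, the Nr1d nuclear receptors, the PAR bZIP factors Dbp and Tef, and the repressor Ciart. The Per and Cry proteins and Ciart act back on the Arntl and Clock pair, and the Nr1d proteins repress Arntl through ROR elements. Many of these transcripts rise and fall over the day, Arntl and Dbp at different phases, so a level in a library gives no amplitude and no phase. Whether the groups were collected at the same hour was not stated, and the part of the hour in their differences was not tested.

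Promoter sequence is shown for 3 genes whose windows hold the elements that tie the loop together, an E-box or a ROR element. RefSeq windows on the GRCr8 build, running from 250 bases before to 50 bases after each annotated start, were found for 10 of 10 genes, with 12 windows in all because Clock and Nr1d1 have more than 1 start. The 250 bases before the start are printed, 5′ to 3′ on the gene's strand, for Arntl at chr1:176766078-176766327 (plus strand), Tef at chr7:115206577-115206826 (plus strand) and Ciart at chr2:186112247-186112496 (minus strand). Capitals mark the ROR element core TAGGTCA in Arntl and the E-box CACGTG in Tef and Ciart.
Arntl: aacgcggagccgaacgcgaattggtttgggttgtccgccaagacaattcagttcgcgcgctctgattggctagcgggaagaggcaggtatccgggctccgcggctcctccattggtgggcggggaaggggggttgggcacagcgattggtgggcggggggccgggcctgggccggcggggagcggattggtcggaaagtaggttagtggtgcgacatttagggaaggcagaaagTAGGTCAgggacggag
Tef: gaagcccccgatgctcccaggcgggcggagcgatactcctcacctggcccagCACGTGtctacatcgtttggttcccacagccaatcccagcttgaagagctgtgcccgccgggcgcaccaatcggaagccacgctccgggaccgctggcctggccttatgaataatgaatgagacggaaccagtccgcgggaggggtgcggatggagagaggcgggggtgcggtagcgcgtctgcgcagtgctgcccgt
Ciart: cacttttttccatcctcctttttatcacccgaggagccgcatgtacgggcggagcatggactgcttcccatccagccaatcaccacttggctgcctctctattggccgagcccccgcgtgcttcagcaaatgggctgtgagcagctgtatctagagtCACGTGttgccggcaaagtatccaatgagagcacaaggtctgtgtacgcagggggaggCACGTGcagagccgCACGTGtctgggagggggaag
Positions count back from the annotated start, with the first base before it as -1. Arntl held 1 ROR element core, beginning at -16. Tef held 1 E-box, at -198, and Ciart held 3, at -93, -35 and -21. The motifs were searched on both strands, and none of the matches overlapped another. The E-box CACGTG stood in 3 of the 12 windows (Tef, Ciart and the second window of Nr1d1, at -191) and in 6.42% of all 33469 RefSeq windows of this length. The variant CACGTT stood in Per2, at -62, and on the minus strand of the first Nr1d1 window, at -174, and in 4.83% of all windows. Per2 also held the D-box TTATGTAA, the element bound by Dbp and Tef, at -192, a motif found in 0.893% of windows. The ROR element core stood in 2.63% of windows. The D-box TTACGTAA (0.12% of windows) and the cAMP response element TGACGTCA (1.83%) had 0 matches in the 12 windows. The windows of Clock, Per1, Per3, Nr1d2 and Dbp held none of these letters, which says nothing of elements farther away.

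Library totals ran from 40296297 to 51669067 counts. Levels are given as CPM, counts scaled to library size with TMM factors, as mean ± SD over 3 libraries. They are compared within a gene only, since they are not per length. In the first principal component over tested genes, which held 28.2% of the variance, sham libraries lay from -35.6 to -27.9, BDL libraries from -22.7 to -15.2, and the 6 vector libraries from 14.9 to 41.6. AAV-VEGFC 1 was at the upper end of that range. Markers of brain regions were read beside the tissue label. There, 7 genes of cortex and hippocampus neurons summed to 2869.5 to 4367.3 CPM per library, and 7 genes of midbrain monoamine neurons to 6.10 to 11.1 CPM. Sums of different genes are not on the same scale, so they do not show which region was sampled. The label was not tested. Among 9 markers of the suprachiasmatic nucleus, the seat of the central clock, and of the hypothalamus, the summed level was 38.6 to 126 CPM, highest in AAV-GFP 1. Vip, a neuropeptide of the suprachiasmatic nucleus and also of cortical interneurons, rose in AAV-VEGFC against BDL, from 37.2 ± 2.11 to 53.5 ± 10.6 CPM (0.52 ± 0.14 on the log2 scale, adjusted p = 0.0404). Its part in the clock genes' levels was not tested. Within that list Six6 was at 0 in all BDL and AAV-GFP libraries, and Lhx1 at 0 in all AAV-GFP and AAV-VEGFC libraries. Of 5 pineal markers, summing to 0 to 0.741 CPM, Crx and Gngt1 were at 0 in every library. Vegfc itself read 2.65, 3.29 and 3.85 CPM in the AAV-VEGFC group against 3.65, 2.83 and 3.52 in the AAV-GFP group, so the gene's count did not separate the vectors, and the labels do not say whether transcripts of the vector would be counted there.

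Over all 4 groups, 6 of the 10 genes differed between any of them at an adjusted p under 0.05, where 13.7% of all tested genes did. The test was edgeR's quasi-likelihood test with Benjamini-Hochberg adjustment over the 12850 genes. The 10 genes were chosen with earlier results of these data known. Adjusted p values and the shares beside the counts, here and below, do not account for that choice. The 6 were Ciart (adjusted p = 0.00292), Dbp (0.00492), Tef (0.0109), Clock (0.0118), Per3 (0.0147) and Arntl (0.0437). For Nr1d1 (0.0599), Per2 (0.209), Per1 (0.426) and Nr1d2 (0.492) a difference between groups was not shown. The 6 did not share 1 pattern: mean levels of Arntl and Clock were highest in sham rats, those of Dbp, Tef and Ciart were lowest there, and Per3 was highest after BDL alone. The call of Arntl was lost in 9 of 21 other ways of running the test, and those of Dbp and Ciart in none of them, with a highest adjusted p of 0.0313 and 0.0158. Without sham 1 the count was 3, with 7.23% of all genes called. Reads of a bulk library do not tell fewer cells of a type from less RNA per cell.

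**Figure D1:**
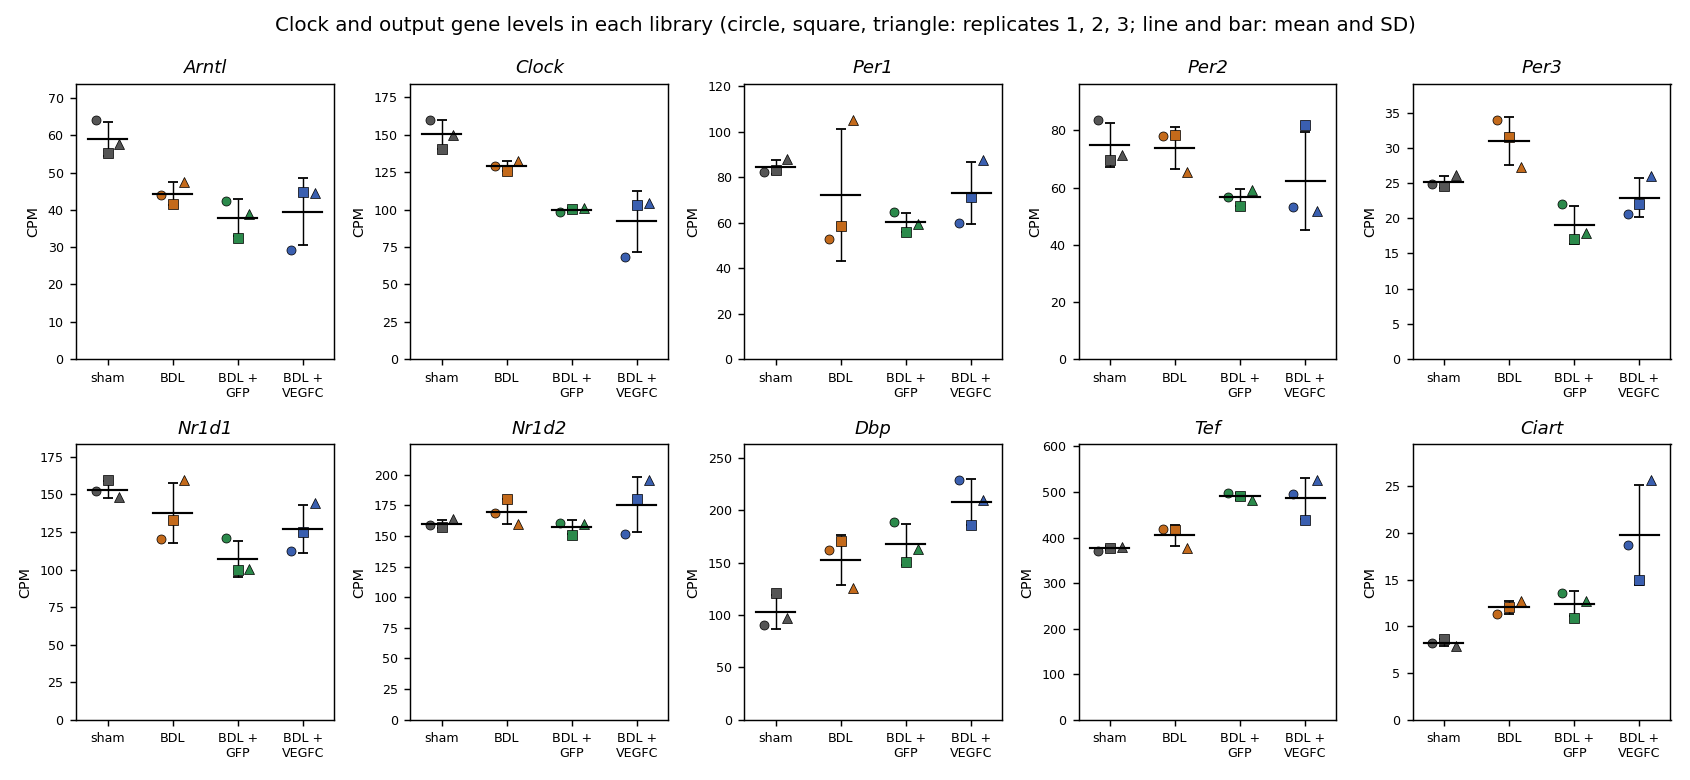
Level of each of the 10 genes in CPM (vertical axes, starting at 0) in each of 12 libraries, by group; points are libraries, lines and bars are group means and SD. Arntl and Clock are highest in the sham libraries, and Dbp, Tef and Ciart are lowest there.

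The first comparison, BDL against sham, asks what ligation itself does to these transcripts. None of the 10 genes was called by edgeR at an adjusted p under 0.05, where 0.109% of all genes were. At an unadjusted p under 0.05 there were 4 of 10, against 5.90% of all genes, and 5 of 10 did not overlap between groups, against 25.0% of all genes. DESeq2 called 1 gene (Dbp), with 0.840% of all genes, and limma voom with quality weights called 3 (Arntl, Clock and Dbp), with 2.70%. Median log2 fold changes were 0.03 over the 10 genes and 0.01 over all genes, because members lay on both sides.

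Among the activators, Arntl read 64.2, 55.2 and 57.6 CPM in sham libraries and 44.0, 41.6 and 47.5 after BDL. Every BDL library was below every sham library, with a log2 fold change of -0.41 ± 0.15 (SE; 95% interval -0.75 to -0.07; adjusted p = 0.737). Clock, the partner of Arntl, read 160.2, 141 and 149.8 CPM in sham and 129, 126 and 132 after BDL, again without overlap (-0.22 ± 0.13, adjusted p = 0.962). Both activators thus had lower values after BDL without passing the test.

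The outputs lay on the other side. Dbp, a transcription factor that carries the rhythm to metabolic genes, read 90.7, 121 and 96.8 CPM in sham and 162, 171 and 125 after BDL, without overlap. Its log2 fold change was 0.57 ± 0.15 (95% interval 0.25 to 0.89; adjusted p = 0.348). Ciart, a repressor of the Arntl and Clock pair, read 8.21, 8.62 and 7.94 CPM in sham and 11.4, 12.03 and 12.7 after BDL, also without overlap (0.54 ± 0.17, adjusted p = 0.513). Tef, a relative of Dbp, was at 376 ± 4.50 CPM in sham and 405 ± 23.6 after BDL, with overlapping libraries and an interval of -0.06 to 0.27.

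The repressors were mixed. Per3, of the Per family, read 24.8, 24.6 and 26.2 CPM in sham and 34.0, 31.6 and 27.2 after BDL, without overlap (0.30 ± 0.12, 95% interval 0.03 to 0.57; adjusted p = 0.8). Per1, an early light- and hormone-responsive member, was level in sham libraries at 82.3, 83.3 and 88.0 CPM but spread after BDL, at 52.7, 58.4 and 105. The third BDL library was above all sham libraries and the other two were below them. Per2 was at 75.0 ± 7.65 CPM in sham and 73.9 ± 7.44 after BDL. The nuclear receptor Nr1d1 was at 153 ± 5.70 and 138 ± 19.8 CPM (-0.15 ± 0.12), and its paralog Nr1d2 at 159.7 ± 3.30 and 169.8 ± 10.3 CPM (95% interval -0.11 to 0.29). Nr1d1 overlaps Thra, a thyroid hormone receptor gene, in the RefSeq annotation, and no source used here says whether counting used strand, so reads of the overlap cannot be told apart. Thra was at 459.8 to 476.6 CPM in sham libraries and 501.3 to 529.8 after BDL, opposite in direction to Nr1d1. Clock and Per2 overlap only loci named by number.

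AAV-GFP against BDL compares ligated rats with and without a control vector. Per3 fell, and was the only one of the 10 genes called by edgeR, where 6.19% of all genes were (5.20% lower and 0.988% higher). Over all genes 127 of 795 calls were higher, 80 of 958 with total-count scaling and 2195 of 4687 with limma voom. Its values were 22.1, 17.01 and 17.9 CPM with AAV-GFP against 34.0, 31.6 and 27.2 without vector. All AAV-GFP libraries were below all BDL libraries, with a log2 fold change of -0.70 ± 0.12 (95% interval -0.97 to -0.43; adjusted p = 0.0062). This call was kept in 22 of 22 alternatives, with adjusted p between 1.37e-05 and 0.0363.

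Further differences in that comparison missed the threshold. Tef read 499, 490.4 and 481 CPM with AAV-GFP against 419.8, 417 and 378, without overlap (0.28 ± 0.08, adjusted p = 0.0572). Clock read 98.4, 100.15 and 101 CPM against 129, 126 and 132, without overlap (-0.37 ± 0.13, adjusted p = 0.132). Per2 read 56.8, 53.5 and 59.2 CPM against 78.1, 78.3 and 65.3, without overlap (-0.39 ± 0.16, adjusted p = 0.195). With Per3 these were the 4 genes whose libraries did not overlap, against 38.1% of all genes, so the share is near that of the whole table. Nr1d1 was at 107 ± 12.1 CPM against 138 ± 19.8 (-0.37 ± 0.12, adjusted p = 0.111), and Arntl at 37.9 ± 5.003 CPM against 44.4 ± 2.97 (-0.23 ± 0.15). Dbp was at 167 ± 19.8 CPM against 153 ± 23.9 (95% interval -0.18 to 0.45), and Nr1d2 at 157 ± 5.48 against 169.8 ± 10.3 (-0.11 ± 0.09). Per1 (60.1 ± 4.29 CPM against 72.1 ± 28.9) and Ciart (12.4 ± 1.36 against 12.04 ± 0.670) overlapped. Median log2 fold changes were -0.24 over the 10 genes and 0.01 over all genes. Leaving out AAV-VEGFC 1, 2 or 3, which enter the shared estimate of spread, gave 4, 3 and 2 called genes, where 22.7%, 6.38% and 6.29% of all genes were called.

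AAV-VEGFC against AAV-GFP sets the growth factor against its control vector. None of the 10 genes was called by edgeR, DESeq2 or limma voom, and edgeR called 0.00778% of all genes. At an unadjusted p under 0.05 there was 1 of 10 (Ciart), against 4.37% of all genes. Ciart read 18.7, 15.0 and 25.6 CPM with AAV-VEGFC and 13.6, 10.95 and 12.7 with AAV-GFP. It was the 1 gene of the 10 without overlap, against 6.06% of all genes, with a log2 fold change of 0.67 ± 0.17 (95% interval 0.31 to 1.03; adjusted p = 0.948). Without AAV-VEGFC 3, the highest library, the log2 fold change was 0.44. Medians were 0.21 over the 10 genes and 0.01 over all genes.

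The other genes were not called between the vectors in the fit of all 12 libraries. Dbp read 229, 186 and 209.5 CPM with AAV-VEGFC and 189, 150.4 and 163 with AAV-GFP, overlapping by 1 library (0.31 ± 0.14, 95% interval -0.01 to 0.63). Per3 had an interval of 0.00 to 0.54, Nr1d1 of -0.02 to 0.52, Nr1d2 of -0.04 to 0.36 and Per1 of -0.21 to 0.77. In a fit without sham 2, AAV-GFP 1 and AAV-VEGFC 1, edgeR called Per3 (log2 fold change 0.47, adjusted p = 0.0399), Nr1d1 (0.44, 0.0476) and Nr1d2 (0.28, 0.0363), with 9.26% of all genes called. These libraries were picked with earlier results of these data known, and the adjusted p values do not account for that choice. In the first principal component sham 2, at -27.9, lay beside sham 3, at -29.5. Per3 was at 22.9 ± 2.77 CPM with AAV-VEGFC, Nr1d1 at 127 ± 16.0, Nr1d2 at 175 ± 22.4 and Per1 at 73.0 ± 13.8. Arntl was at 39.5 ± 8.91 CPM with AAV-VEGFC, Clock at 92.1 ± 20.5, Per2 at 62.3 ± 17.1 and Tef at 486 ± 44.7, all overlapping AAV-GFP. For Arntl and Clock the lowest library was AAV-VEGFC 1, at 29.3 and 68.4 CPM, where the other libraries of the group were at 44.9 and 44.5 for Arntl and at 103 and 105 for Clock.

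**Figure D2:**
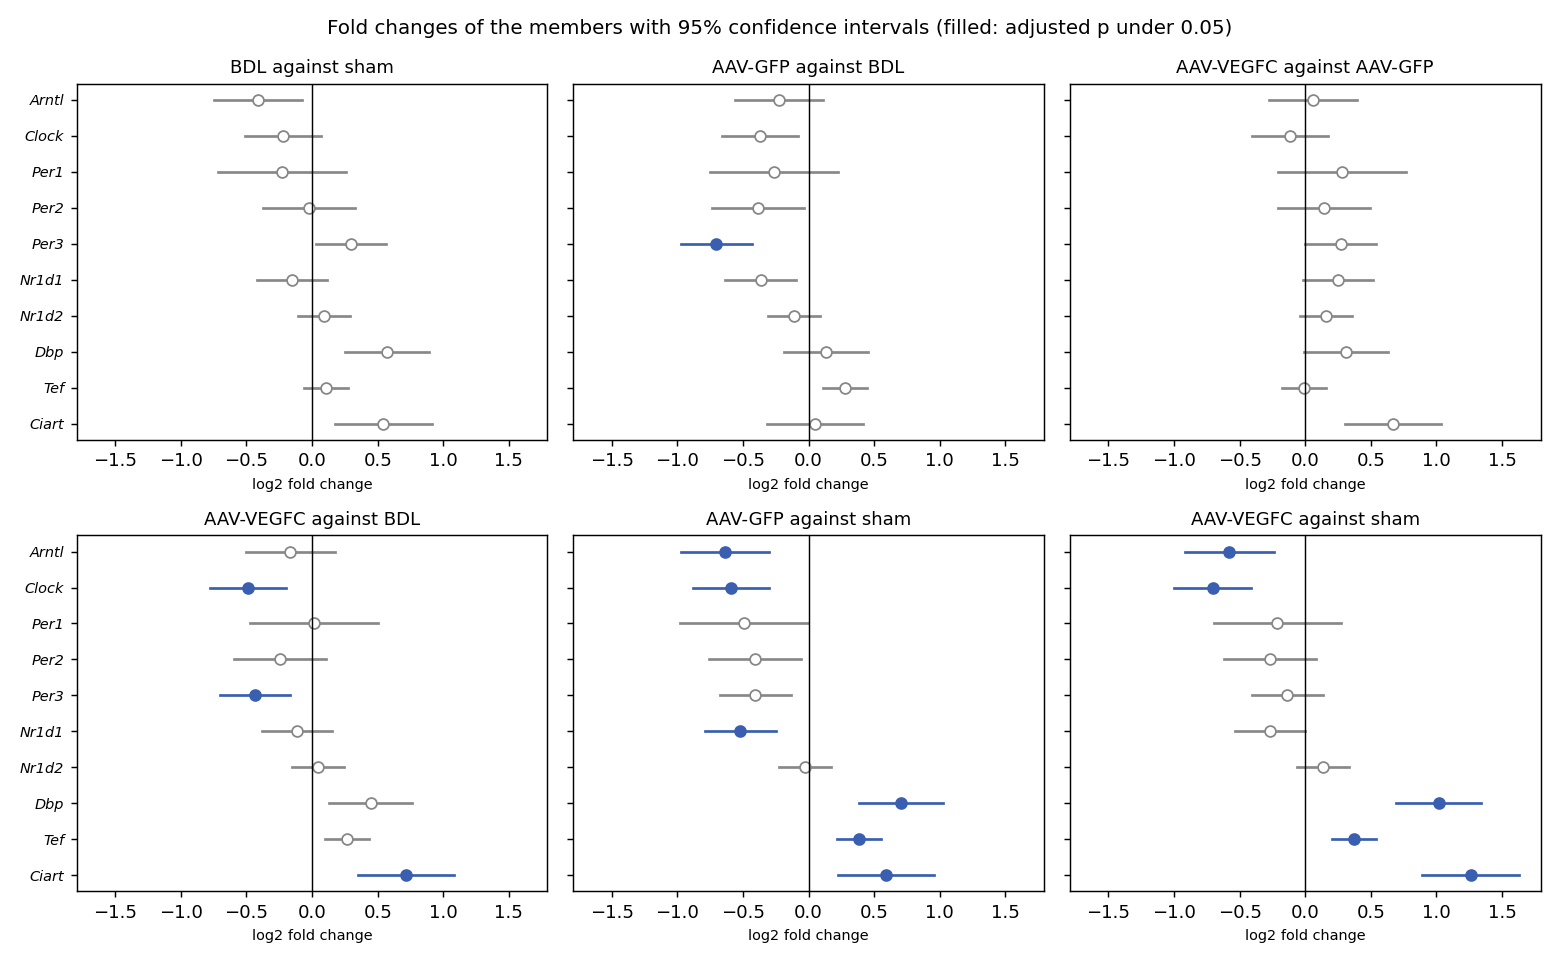
Log2 fold change (horizontal axes) of each of the 10 genes in the comparisons, with 95% intervals from the edgeR fit. Per3 is below 0 in AAV-GFP against BDL, and Ciart is above 0 in AAV-VEGFC against BDL and against sham.

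In AAV-VEGFC against BDL, which shares the BDL libraries with the AAV-GFP comparison, 3 of 10 genes were called by edgeR, against 9.93% of all genes. Of these 2 fell, against 7.02% of all genes, and 1 rose, against 2.91%. Over all genes 374 of 1276 calls were higher, and 213 of 1457 with total-count scaling. Ciart rose from 12.04 ± 0.670 to 19.8 ± 5.40 CPM (log2 fold change 0.72 ± 0.17, 95% interval 0.35 to 1.08, adjusted p = 0.0208). Clock fell from 129 ± 3.24 to 92.1 ± 20.5 CPM (-0.49 ± 0.13, adjusted p = 0.0401). Per3 fell from 31.0 ± 3.44 to 22.9 ± 2.77 CPM, with libraries at 20.6, 22.1 and 25.99 (-0.43 ± 0.12, adjusted p = 0.0472). None of these 3 overlapped between groups, nor did Dbp (0.45 ± 0.14, adjusted p = 0.0727) and Tef (0.26 ± 0.08, adjusted p = 0.05001), making 5 of 10, against 32.9% of all genes. Without AAV-VEGFC 1 the log2 fold change of Clock shrank to -0.31 and stayed called. No gene was called without BDL 1 or BDL 2, and 1 without BDL 3, any 1 sham library, AAV-GFP 2 or AAV-GFP 3, where the share of all genes called lay between 4.52% and 8.17%. There were 2 without AAV-GFP 1 (11.4% of all genes) and 5 without AAV-VEGFC 2 (16.8%). Over all alternatives the fold changes ran from -0.59 to -0.31 for Clock, -0.53 to -0.36 for Per3 and 0.48 to 0.88 for Ciart. In a fit of these groups alone, 0 were called. Median log2 fold changes were -0.05 over the 10 genes and 0.00 over all genes.

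The vector groups were also set against sham, in 2 comparisons added after seeing the data. They share the sham libraries with each other and differ from sham in both ligation and vector, which these 2 comparisons cannot tell apart. BDL against sham and each vector group against BDL are given above. With AAV-GFP, 6 of 10 genes were called by edgeR, against 12.3% of all genes. Of these 3 fell, against 8.33% of all genes, and 3 rose, against 3.95%. In all, 9 of 10 did not overlap, against 47.7% of all genes. Arntl fell by 0.64 on the log2 scale (SE 0.15; adjusted p = 0.0215), Clock by 0.59 (SE 0.13; 0.0158) and Nr1d1 by 0.52 (SE 0.12; 0.0192). Tef rose by 0.38 (SE 0.08; adjusted p = 0.00883), Dbp by 0.70 (SE 0.15; 0.0106) and Ciart by 0.59 (SE 0.17; 0.0413). Per1 (-0.49 ± 0.22, adjusted p = 0.173), Per2 (-0.41 ± 0.16, 0.121) and Per3 (-0.41 ± 0.12, 0.0535) had lower values in all AAV-GFP libraries than in all sham libraries. Nr1d2, at 160.5, 151 and 159.9 CPM against 159, 157 and 163, was the gene that overlapped. The count was 0 without sham 1, 1 without sham 3, and 2 without AAV-GFP 2 or AAV-GFP 3, where the share of all genes called was 4.82%, 5.53%, 6.64% and 5.96%. The fold changes moved less, over all alternatives from -0.77 to -0.54 for Arntl, -0.64 to -0.55 for Clock and 0.35 to 0.39 for Tef. Thra, which overlaps Nr1d1, was at 561.8 to 610.6 CPM with AAV-GFP and 459.8 to 476.6 in sham, opposite to the fall of Nr1d1.

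With AAV-VEGFC, 5 of 10 genes were called against sham by edgeR, against 18.6% of all genes. Of these 3 rose, against 7.98% of all genes, and 2 fell, against 10.6%. Over all genes 1026 of 2394 calls were higher, and 626 of 2217 with total-count scaling. In all, 6 did not overlap, against 39.1%. Ciart rose 2.40-fold, with a mean of 8.26 ± 0.346 CPM in sham and a log2 fold change of 1.26 ± 0.17 (95% interval 0.89 to 1.63; adjusted p = 0.000734). Dbp rose 2.02-fold, from 103 ± 15.9 to 208 ± 21.5 CPM (1.02 ± 0.15, 95% interval 0.70 to 1.34, adjusted p = 0.00113). The lowest AAV-VEGFC library for Dbp, at 186 CPM, was above the highest sham library, at 121. Tef rose 1.29-fold (adjusted p = 0.00797), with libraries at 496, 438 and 526 CPM against 371, 378 and 379.6. Clock fell by 0.71 on the log2 scale (SE 0.13; adjusted p = 0.0051) and Arntl by 0.58 (SE 0.15; 0.0267). The calls of Dbp and Ciart were kept in every alternative run, with a highest adjusted p of 0.013 and 0.0204. Nr1d1 read 113, 125 and 144 CPM against 152, 159 and 148, without overlap (-0.27 ± 0.12, adjusted p = 0.143). The Per genes were not called, with log2 fold changes of -0.21 ± 0.22 for Per1, -0.27 ± 0.16 for Per2 and -0.14 ± 0.12 for Per3. Without AAV-VEGFC 2, whose Per2 level of 82.1 CPM stood above 53.1 and 51.9 in the others, Per2 was called (-0.52, adjusted p = 0.00922). Nr1d2 was not called (0.14 ± 0.09, adjusted p = 0.315), but was without AAV-VEGFC 1 (0.23, adjusted p = 0.0205). Median log2 fold changes against sham were -0.41 with AAV-GFP and -0.17 with AAV-VEGFC over the 10 genes, and 0.01 over all genes in both.

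Ratios within a library do not depend on scaling to library size. The log2 ratio of Dbp to Arntl counts was 0.79 ± 0.32 in sham, with libraries from 0.50 to 1.13, and 1.77 ± 0.33 after BDL, from 1.40 to 2.04. It was 2.14 ± 0.08 with AAV-GFP, from 2.06 to 2.21, and 2.42 ± 0.48 with AAV-VEGFC, from 2.05 to 2.97. The sham and BDL ranges did not overlap each other or those of the vector groups, which did overlap. For sham and BDL this follows from the levels above, where Dbp was higher and Arntl lower after BDL, without overlap. It adds no evidence beyond them, and the same holds for Ciart to Arntl. The log2 ratio of Ciart to Arntl was -2.84 ± 0.15 in sham, -1.88 ± 0.08 after BDL, -1.61 ± 0.03 with AAV-GFP and -1.01 ± 0.50 with AAV-VEGFC, where libraries read -0.64, -1.58 and -0.80. Ratios of Dbp to Per3 separated the vector groups (3.14 ± 0.04 and 3.18 ± 0.25) from sham (2.02 ± 0.24) and BDL (2.30 ± 0.12). Per1 to Per2 showed no such order: the third BDL library was at 0.69 and the others of that group at -0.57 and -0.42, while sham was at 0.18 ± 0.18. With 3 libraries a group, an exact permutation test of 1 such ratio cannot go below p = 0.1, so the ratios are given as values.

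**Figure D3:**
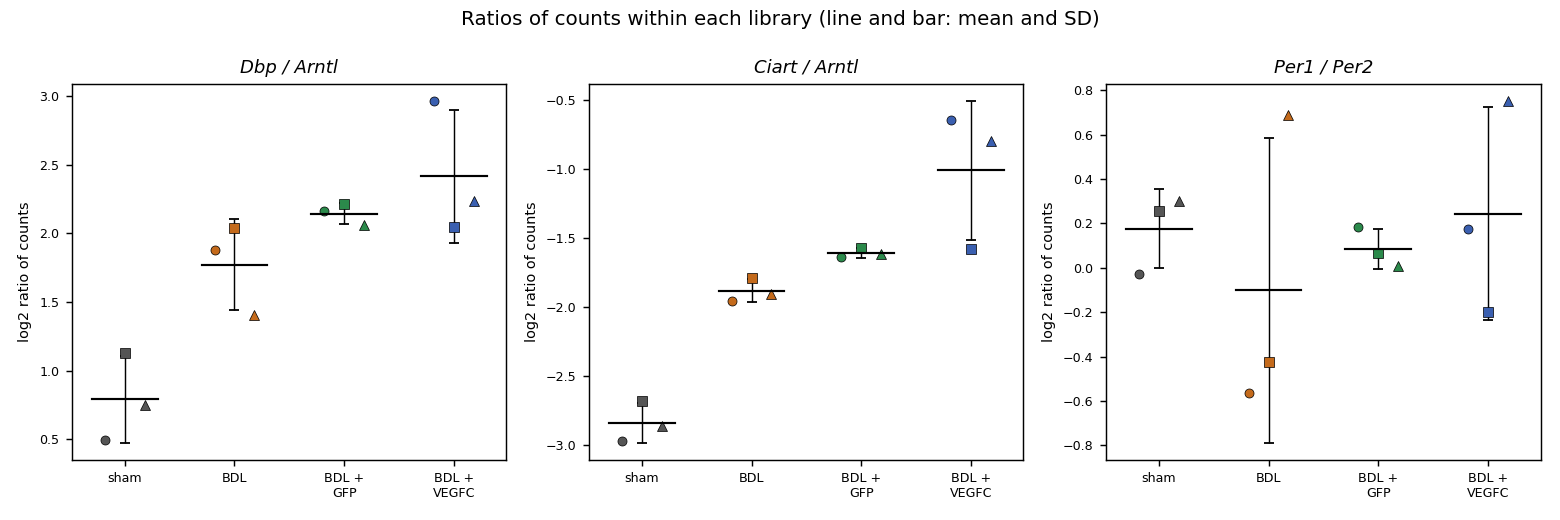
Log2 ratios of counts within each library (vertical axes), by group; points are libraries, lines and bars are means and SD. The Dbp to Arntl ratio runs from 0.79 in sham to 2.42 with AAV-VEGFC.

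The rest of the clock was read from lists of named genes. Of 10 listed further clock transcription factors, 6 were in the table and tested. Of these, 1 fell in AAV-GFP against sham, where 8.33% of all genes fell, and 0 were called in the other 5 comparisons. The one that fell was Bhlhe40, a repressor of Arntl and Clock activity, from 154.6 ± 7.02 to 99.9 ± 11.7 CPM (-0.63 ± 0.12, adjusted p = 0.00587). The repressors Cry1 and Cry2, partners of the Per proteins, were not called, with Cry2 group means of 188 ± 5.77, 179 ± 6.71, 181 ± 3.47 and 181 ± 16.5 CPM in sham, BDL, AAV-GFP and AAV-VEGFC. Cry1 was at 18.4 ± 1.02, 18.6 ± 5.37, 19.7 ± 0.703 and 20.1 ± 2.03 CPM. Of 16 listed kinases, ubiquitin ligases and cofactors, 14 were tested. Csnk2b, the regulatory subunit of casein kinase 2, rose in AAV-VEGFC against BDL (0.23 ± 0.06, adjusted p = 0.0314) and in both vector groups against sham, with means of 85.3 ± 1.89, 87.1 ± 3.29, 99.4 ± 2.11 and 102 ± 4.09 CPM across the 4 groups. Prkaa1, a catalytic subunit of AMP-activated kinase, fell in AAV-VEGFC against sham (-0.48 ± 0.14, adjusted p = 0.0384), and the remaining 12 were not called anywhere.

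Among 10 listed symbols of clock-controlled output genes, which include both Noct and its older name Ccrn4l, 9 were tested. Of these, 0 were called in the 4 comparisons of the design. In AAV-VEGFC against sham 2 rose and 2 fell, against 7.98% and 10.6% of all genes. Klf10, a zinc-finger factor under clock control, fell from 72.0 ± 1.89 to 39.1 ± 8.09 CPM (-0.88 ± 0.17 on the log2 scale, adjusted p = 0.00563), and to 31.2 ± 5.74 CPM with AAV-GFP (-1.21 ± 0.17, 0.00124). Pdk4, a kinase that shuts off pyruvate dehydrogenase, rose from 2.82 ± 0.575 to 8.05 ± 2.48 CPM with AAV-VEGFC (1.52 ± 0.35, 0.0136) and to 6.80 ± 0.548 with AAV-GFP (1.27 ± 0.34, 0.0351). Usp2, a deubiquitinase, rose with AAV-VEGFC from 40.0 ± 2.20 to 58.2 ± 12.2 CPM (0.54 ± 0.12, adjusted p = 0.0133). Cipc, a repressor that binds the Clock protein, fell with AAV-VEGFC from 144 ± 4.59 to 120.5 ± 10.8 CPM (-0.26 ± 0.08, adjusted p = 0.0397). The calls of Klf10 were kept in all 22 alternatives, while that of Cipc was lost in 10.

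**Figure D4:**
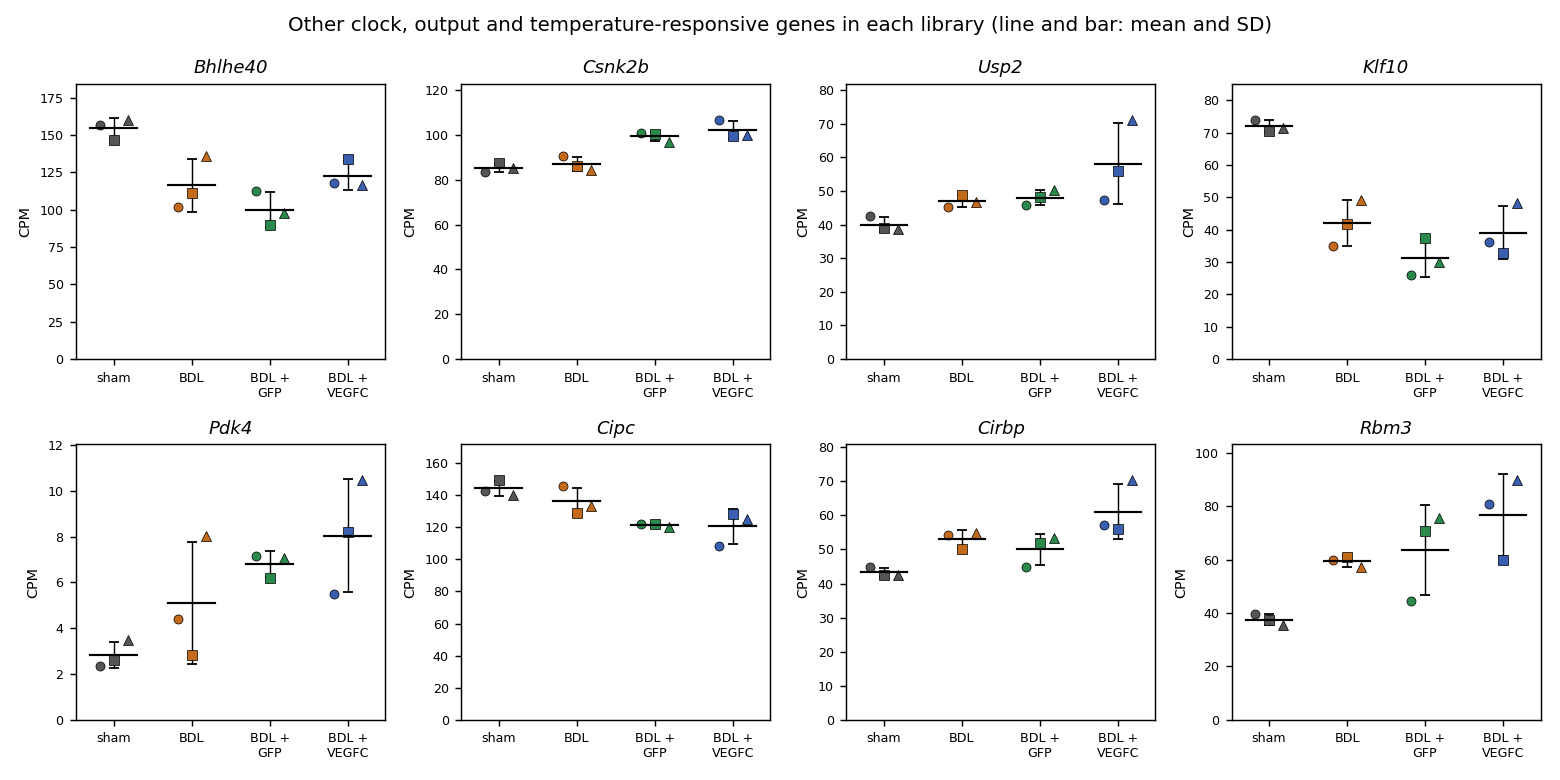
Level of 8 further genes in CPM (vertical axes, starting at 0) in each of 12 libraries, by group; points are libraries, lines and bars are means and SD. Klf10 and Bhlhe40 are highest in sham, and Usp2, Pdk4 and Rbm3 are lowest there.

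Inputs that act on clock genes were read from 3 lists. Of 10 immediate early genes, which report recent neuronal activity and include regulators of Per1 such as Sik1, 7 fell in AAV-GFP against sham. In AAV-VEGFC against sham 5 fell, and in AAV-GFP against BDL 2 (Arc and Egr2). Of all genes 8.33%, 10.6% and 5.20% fell in these comparisons. The Egr2 call in AAV-GFP against BDL was lost in 8 of 22 alternatives. In AAV-VEGFC against BDL 2 rose (Sik1 and Dusp1) and 1 fell (Arc), against 2.91% and 7.02% of all genes. Arc, a synaptic activity gene, was at 310.0 ± 16.2 CPM in sham, 114 ± 50.5 after BDL, 39.5 ± 4.70 with AAV-GFP and 49.9 ± 3.47 with AAV-VEGFC. The summed level of the list was 1011 to 1090 CPM in sham, 344 to 639 after BDL, 329 to 360.2 with AAV-GFP and 392 to 595 with AAV-VEGFC. In this sum sham libraries stood above all others, which did not hold for each gene of the list. Sik1 read 15.1, 15.9 and 14.1 CPM with AAV-VEGFC against 9.75, 11.8 and 11.5 in sham. Dusp1 read 72.3, 135 and 148 CPM with AAV-VEGFC against 84.6, 86.3 and 93.0 in sham. The part of immediate early genes in the clock genes' levels was not tested.

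Of 7 glucocorticoid targets, chosen because adrenal steroids set peripheral clocks, 3 rose in AAV-GFP against BDL (Sgk1, Ddit4 and Nfkbia), against 0.988% of all genes. In AAV-VEGFC against BDL 4 rose (the same and Tsc22d3), against 2.91% of all genes. In both comparisons 0 of the list fell. The summed level of the list was 363 to 427 CPM in sham, 348 to 495 after BDL, 611 to 688 with AAV-GFP and 642 to 696 with AAV-VEGFC. The list did not rise as a whole: Fkbp5, Zbtb16 and Errfi1 were not called against BDL. Fkbp5 read 73.7, 93.2 and 93.5 CPM with AAV-GFP against 80.6, 96.0 and 75.2 after BDL. Zbtb16 read 20.3, 39.1 and 40.3 CPM against 35.6, 46.1 and 40.5. Sgk1, a kinase induced by steroids, was at 77.5 ± 14.7 CPM in sham, 89.4 ± 45.9 after BDL, 231 ± 24.4 with AAV-GFP and 213 ± 63.8 with AAV-VEGFC. Of 7 heat-shock and cold-responsive genes, Rbm3, an RNA-binding protein induced by cooling, rose in AAV-GFP (adjusted p = 0.0221) and AAV-VEGFC (0.00412) against sham. Its means were 37.5 ± 2.07, 59.3 ± 2.03, 63.5 ± 16.8 and 76.7 ± 15.3 CPM across the 4 groups. Cirbp, its relative, rose in AAV-VEGFC against sham, from 43.2 ± 1.31 to 61.1 ± 7.99 CPM (0.50 ± 0.10, adjusted p = 0.00643). Hsph1, a chaperone, fell in both vector groups against sham (-0.34 with AAV-GFP, a call lost in 13 of 22 alternatives, and -0.45 with AAV-VEGFC), and Hsp90aa1, another, rose in AAV-VEGFC against BDL (0.59 ± 0.14, adjusted p = 0.0251). The part of steroid- or temperature-responsive genes in the clock genes' levels was not tested.

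Of the marker lists for other cell types, those of blood and endothelium held called genes in several comparisons. All 6 blood markers rose in AAV-GFP and AAV-VEGFC against sham, where 3.95% and 7.98% of all genes rose. In BDL against sham 4 rose, with 0.109% of all genes called, and 0 were called in the other 3 comparisons. Sums of the blood markers were 108 to 147 CPM in sham, 409 to 810 after BDL, 758 to 845 with AAV-GFP and 878 to 1225 with AAV-VEGFC. The BDL and AAV-GFP ranges overlapped. Of 5 endothelial markers, 4 rose in each vector group against sham. Against BDL 3 rose with AAV-VEGFC and 2 with AAV-GFP, where 2.91% and 0.988% of all genes rose. The 5 endothelial markers summed to 197 to 228, 229 to 314, 366 to 403 and 389 to 425 CPM in the same order of groups. Of 6 microglial markers, with sums of 225 to 258, 257 to 296, 302 to 482 and 285 to 461 CPM, 1 (Tmem119) rose in AAV-VEGFC against sham and 0 were called in the other 5. None of the 7 cortex and hippocampus neuron, 6 astrocyte or 6 oligodendrocyte markers was called by edgeR in any of the 6 comparisons. At an unadjusted p under 0.05 there were 0 of 42, 4 of 36 and 5 of 36 gene and comparison pairs in these lists. Single libraries differed within groups in the sums. AAV-VEGFC 1 was at 5400 CPM for astrocytes, against 3655 and 3357 in the rest of its group. For oligodendrocytes it was at 18780 CPM, against 11094 and 14655. AAV-GFP 1 was at 2870 CPM for cortex and hippocampus neurons, against 4367 and 4009 in the rest of its group. The share of reads on Rn18s, a ribosomal RNA, was 0.137% to 0.168% in sham, 0.181% to 0.306% after BDL, 0.43% to 1.12% with AAV-GFP and 0.749% to 1.16% with AAV-VEGFC. Choroid plexus markers reached 281 CPM in sham 2, and pituitary markers 58.0 CPM in AAV-VEGFC 3, the library with the highest Ciart. Pomc, of the pituitary list, rose in AAV-VEGFC against BDL (adjusted p = 0.0173) and against sham (0.00755). The part of blood, vessel, microglial, neuron, astrocyte, oligodendrocyte, pituitary or ribosomal RNA in the clock genes' levels was not tested.

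The genes closest to Arntl and Dbp across the 12 libraries were found by Pearson's r of log2 CPM among 11237 genes, as a description, since libraries share groups and depth. The 5 highest for Arntl were Zdhhc2 (r 0.97, Spearman's rho 0.89), R3hdm1 (0.97, 0.94), Sstr2 (0.96, 0.88), Rps6ka3 (0.96, 0.92) and Cdyl2 (0.96, 0.90). Sstr2, a somatostatin receptor, had means of 30.0, 19.2, 16.3 and 15.9 CPM in sham, BDL, AAV-GFP and AAV-VEGFC. The 5 lowest were Cdc42se2 (-0.97), Lsp1 (-0.96), Cryl1 (-0.96), Gzmm (-0.95) and Crat (-0.95). For Dbp the highest were Oxa1l (r 0.95, rho 0.94), Tmem255b (0.94, 0.96), Slc19a3 (0.94, 0.93), Hbb (0.94, 0.85) and Hbb-b1 (0.93, 0.86). The last 2 are beta globins of red blood cells, near-identical copies whose reads the counting could split. Slc19a3, a thiamine transporter, had means of 2.08, 3.58, 4.19 and 6.38 CPM in the same order. The 5 lowest for Dbp were Ppm1b (-0.97), Setd7 (-0.95), Ipo7 (-0.95), Golph3 (-0.94) and Hnrnph1 (-0.94).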

How the data were processed

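Per the labels' protocols, brain RNA was extracted with Trizol and made into libraries with a TruSeq RNA kit. Per the submitters' processing notes, FastQC, Trimmomatic 0.36, HISAT2 and featureCounts were used on rn6; their settings and the use of strand were not stated. The authors deposited raw counts per gene symbol, in 1 table of 12 libraries and 11 single-library files that equal its columns; 0 columns were left unused. Columns were matched to samples by the names of each sample's own file. That the 3 libraries of a group are 3 rats rests on the design text.

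From the counts, edgeR 4.0.16 (R 4.3.3) computed TMM factors and CPM, kept 12850 genes with filterByExpr and fitted a quasi-likelihood model of 12 libraries with a mean per group. Adjusted p is Benjamini-Hochberg over all tested genes, called under 0.05, and SE comes from the fold change and F statistic. Replicate pairs differed by a chi-square per degree of freedom of 11.7 to 229, above sampling noise. Pairs of AAV-VEGFC 1 with the rest of its group were at 229 and 222, and those of AAV-GFP 1 at 95.7 and 73.3. The remaining pairs lay at 11.7 to 29.3. All 12 libraries enter the shared estimate of spread. Without AAV-VEGFC 1, 33.7% of all genes were called in AAV-GFP against sham, against 12.3% with it. Alternatives used DESeq2 1.42.0, limma 3.58.1 voom and others given in the closing section. The fit was also run on simulated counts, in which all libraries of a gene shared the same spread. That run does not cover libraries that stand apart from their group. Figures used matplotlib 3.10.9. All 10 genes are named; of other lists, genes past the threshold, otherwise the 2 with the smallest p over 4 groups, of which only part is named. Members and lists were chosen with earlier results of these data known. GRCr8 RefSeq windows were used for sequence only, since their build differs from rn6.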

Additional observations from a re-analysis of the deposited data

How the results depend on the processing

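Counts of the 10 genes called at an adjusted p under 0.05 were recomputed with other scaling, tests, filters and libraries. They moved by over 1.5 times as follows, from 0 in BDL against sham, 1 in AAV-GFP against BDL, 0 in AAV-VEGFC against AAV-GFP, 3 in AAV-VEGFC against BDL, 6 in AAV-GFP against sham, 5 in AAV-VEGFC against sham and 6 over any of the groups. DESeq2's test gave 1, 2 and 5 for BDL against sham, AAV-GFP against BDL and AAV-VEGFC against BDL, where it called 0.840%, 11.6% and 18.3% of all genes. Limma voom with quality weights gave 3 and 6 for BDL against sham and AAV-GFP against BDL, with 2.70% and 36.5% of all genes. Fits of the compared groups alone gave 2, 4 and 0 in BDL against sham, AAV-GFP against BDL and AAV-VEGFC against BDL, and 2 in AAV-VEGFC against sham, with 2.63%, 16.1%, 2.62% and 5.58% of all genes. An adjusted p under 0.1 gave 2 in AAV-GFP against BDL and 5 in AAV-VEGFC against BDL, with 10.1% and 18.3% of all genes. Without sham 2, AAV-GFP 1 and AAV-VEGFC 1, picked with earlier results of these data known, the counts were 3, 5, 3 and 5 in the 4 design comparisons. The shares of all genes were 1.62%, 28.3%, 9.26% and 24.2%. The cause of these moves was not tested. Leaving out 1 library at a time gave 0 to 0, 1 to 4, 0 to 0 and 0 to 5 in the design comparisons. The shares of all genes called there were 0.0925% to 0.571%, 2.98% to 22.7%, 0% to 0.170% and 4.52% to 17.6%. AAV-GFP and AAV-VEGFC against sham gave 0 to 7 and 4 to 6, and any of the groups 3 to 8. Their shares of all genes were 4.82% to 33.7%, 7.58% to 24.7% and 7.23% to 33.5%.

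With the replicate number as a block, AAV-VEGFC against BDL had 1 called gene (Ciart), AAV-GFP against sham 5 and any of the groups 5. The other counts did not move. In these 3 tests 7.04%, 9.12% and 9.05% of all genes were called, against 9.93%, 12.3% and 13.7% without the block. The replicate numbers do not pair the libraries. Over 18 same-numbered pairs the correlation of deviations from group means was -0.13 to 0.07, and 2 of 12 libraries correlated best with their own number.

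Over all genes, called counts ranged from 12 to 347 for BDL against sham (14 in the fit used), 386 to 4687 for AAV-GFP against BDL (795), 0 to 1193 for AAV-VEGFC against AAV-GFP (1), 330 to 3123 for AAV-VEGFC against BDL (1276), 625 to 6103 for AAV-GFP against sham (1578), 702 to 3722 for AAV-VEGFC against sham (2394) and 937 to 6627 over any group (1766). Of the 60 member differences, 12 that were not called changed sign in some alternative and are given in the text as levels only, though the plot of fold changes shows them; no other result reversed. Calls lost in 10 or more of 22 alternatives were those of Per3 (13) and Clock (11) in AAV-VEGFC against BDL, Ciart (12) and Hsph1 (13) in AAV-GFP against sham, Csnk2b in AAV-VEGFC against BDL (11) and AAV-GFP against sham (10), and Cipc in AAV-VEGFC against sham (10).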
